A study of Homo sapiens with 9 samples.

Results

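The 41 genes described here encode the protein kinases, spindle parts and kinetochore parts that carry a human cell through mitosis. They were taken by symbol from the gene table among its protein-coding genes. All 41 symbols were found, each on 1 identifier, among 60683 genes, and all 41 passed the filter on low counts that left 16146 genes for testing. The cells were MHCC97H, an established line of hepatocellular carcinoma (HCC) that metastasises readily. The study depleted RPL6, a protein of the large ribosomal subunit that the study links to HCC metastasis, and sequenced poly-A RNA to find the transcripts that follow it. Cells carried the hairpin shRPL6-1, the hairpin shRPL6-2 or a control hairpin (shCont), with 3 libraries in each group and 9 in all. The labels give both shRPL6 groups as RPL6 knockdown and shCont as WT. The study's methods describe hairpins carried by lentivirus and puromycin selection of transduced HCC cells, and how the shCont cells were made is not stated. The gene table abbreviates its column names, which were read as control or hairpin number and then replicate, a reading that no source spells out, so which hairpin is which rests on it. Whether the 3 libraries of a group are separate cultures is not stated, and the p-values therefore cover the spread between libraries only, be it technical or not.

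RPL6 was low in every library of both hairpins. It had 217, 189 and 233 counts with shRPL6-1 and 177, 143 and 285 counts with shRPL6-2, against 7501, 8584 and 7095 counts in shCont. Total counts ran from 13638468 to 16149480 per library. Library shCont replicate 3 stood apart from its group. For each library, the departure of every gene from its average over the 9 libraries was set against the GC content of its transcript. The Spearman correlation across genes lay between -0.108 and 0.580 in the hairpin libraries, and it was 0.243 in shCont replicate 3 but -0.533 and -0.515 in shCont replicates 1 and 2. Results that rest on single libraries are given below with and without them. Of 17 markers of hepatocytes and liver tumours, 4 were tested, with KRT8 and KRT18 abundant (means of 1824 and 747 CPM with shRPL6-2, against 1358 and 470.5 CPM in shCont) and HNF4A and EPCAM low (9.91 and 1.22 CPM, against 7.80 and 2.501 CPM). Of these 4, KRT18 was called higher and EPCAM lower with shRPL6-2, and none was called with shRPL6-1. The other 13, ALB, AFP and APOA1 among them, did not pass the filter.

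Entry into mitosis is driven by CDK1 bound to cyclin B, with Polo-like and Aurora kinases acting beside it. Chromosomes attach to spindle microtubules through kinetochores, and the spindle checkpoint holds the anaphase-promoting complex (APC/C) in check until every chromosome is attached. CDC20 then activates the complex, securin and cyclin B are destroyed, separase cuts cohesin, and the central spindle directs cytokinesis. Most of these genes are transcribed late in the cell cycle, from promoters held silent by the DREAM complex and later activated by B-MYB and FOXM1, so their messages are widely used as a measure of proliferation in liver cancer. In bulk RNA, fewer cells in mitosis and less message per cell cannot be told apart.

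The mitotic genes did not move as a block. With shRPL6-2, 3 of the 41 rose (AURKB, CDC20 and CENPA) and 8 fell (CDK1, AURKA, BUB1, BUB3, TTK, NUF2, KIF23 and ANLN). With shRPL6-1, AURKB and KIF2C rose and none of the 41 fell. AURKB, the kinase that corrects faulty kinetochore attachments, was the 1 member that rose with both hairpins. Every change was under 2-fold, with log2 fold changes between -0.54 and 0.87 for shRPL6-1 and between -0.83 and 0.89 for shRPL6-2, where a value of 1 is 2-fold.

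**Figure D1:**
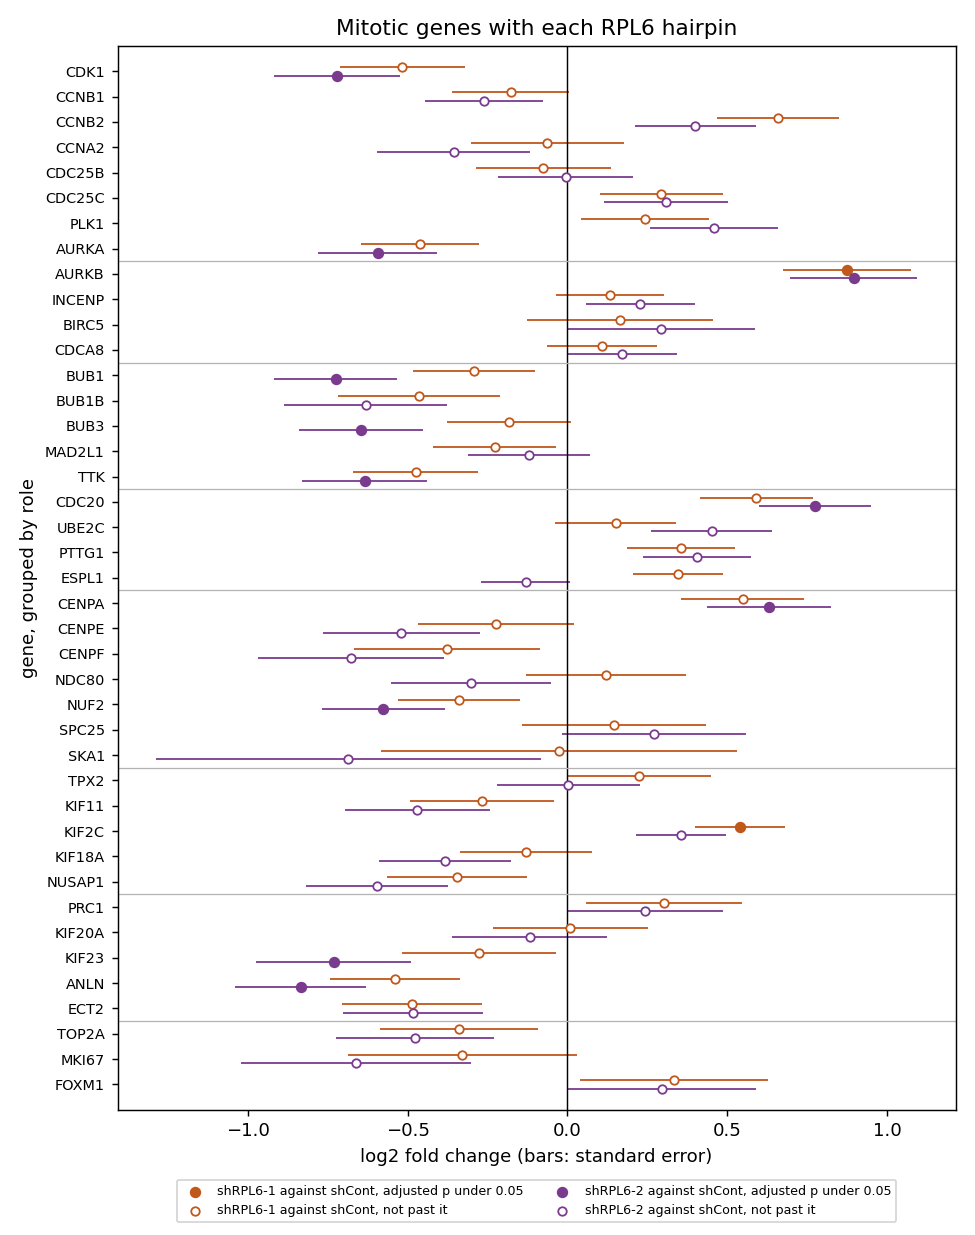
Log2 fold change against shCont (horizontal axis, with standard errors) of the 41 mitotic genes, grouped by role from kinases at the top to proliferation marks at the bottom; filled points have an adjusted p under 0.05. Filled points lie on both sides of 0: 3 to the right and 8 to the left for shRPL6-2, and 2 to the right for shRPL6-1.

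A gene is called here when its adjusted p, over all 16146 genes, was under 0.05 in edgeR's quasi-likelihood test. The 3 members called higher with shRPL6-2 were 7.32% of the 41, and 13.3% of all genes tested were called higher. The 8 called lower were 19.5% of the 41, beside 14.6% of all genes. The 2 called higher with shRPL6-1 were 4.88%, beside 4.44% of all genes, and none of the 41 was called lower, beside 4.07% of all genes. At an unadjusted p under 0.05, 6 members were higher and 5 lower with shRPL6-1 (14.6% and 12.2%, beside 14.5% and 14.7% of all genes). DESeq2 called 0 of the 41 lower with shRPL6-1, beside 3.87% of the 32426 genes with any count. Those 32426 include genes too low for the filter, which all 41 passed, so that share is no like-for-like background. The shares of the 41 lay near those of all genes or differed from them by a few genes, and no count is a result about mitotic genes as a group.

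With both hairpins, 1 of 41 was called higher (2.44%), beside 3.68% of all genes, and none was called lower, beside 3.41%. DESeq2 also called none lower with both, beside 3.23% of the 32426 genes with any count, a share with the same limit. At an unadjusted p under 0.05, 4 members (AURKB, CDC20, CENPA and KIF2C) were higher with both and 5 (CDK1, AURKA, TTK, ANLN and ECT2) lower, which is 9.76% and 12.2% of the 41, beside 11.4% and 11.6% of all genes. Both comparisons use the same shCont libraries. The median log2 fold change of the 41 was -0.06 with shRPL6-1, where that of all genes was -0.01, and -0.26 with shRPL6-2, where that of all genes was -0.03. All 3 shRPL6-1 libraries lay above all 3 shCont libraries for 6 members, beside 16.4% of all genes, and below them for CDK1 and AURKA, beside 15.2% of all genes. All 3 shRPL6-2 libraries lay above shCont for 5 members, beside 18.9% of all genes, and below it for 7, beside 19.7% of all genes.

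Summed over the 41 genes, the level was 3813, 4519 and 3980 CPM with shRPL6-1 and 3622, 3280 and 4527 CPM with shRPL6-2, against 4353, 4189 and 3796 CPM in shCont. CPM is the count per 1000000 counts after scaling of library sizes by TMM, the trimmed mean of M values. The groups overlap in this sum, and its lowest value was in shRPL6-2 replicate 2.

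**Figure D2:**
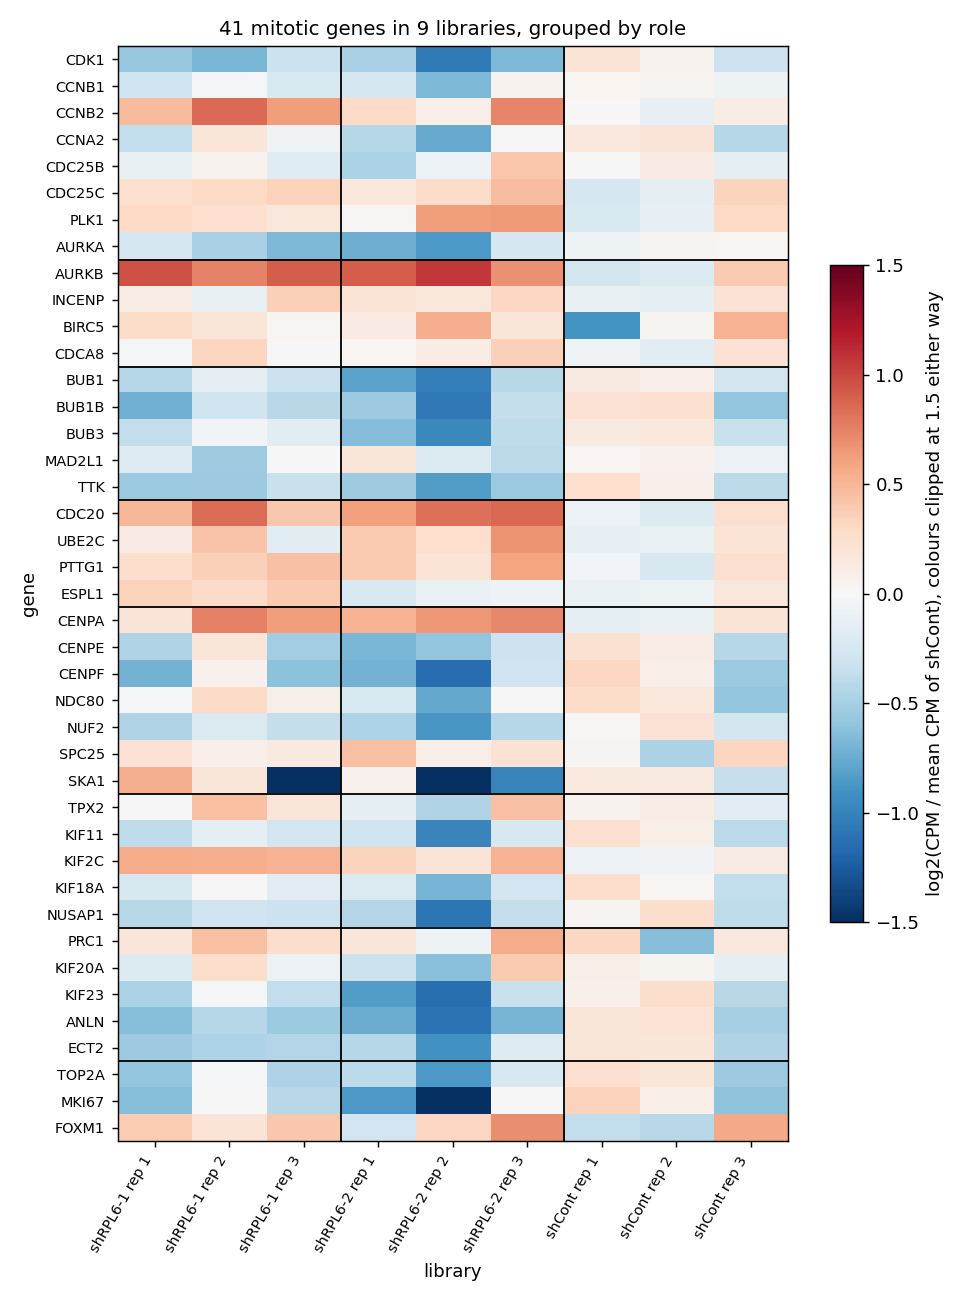
Level of each mitotic gene (rows, by role) in each library (columns, shRPL6-1, then shRPL6-2, then shCont), as log2 of its CPM over the mean CPM of shCont; red is higher, blue lower, and colours stop at 1.5 either way. In shCont replicate 3 many rows have the shade of the hairpin libraries, and shRPL6-2 replicate 2 has the darkest blues, as in MKI67 (58.1 CPM).

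Promoters of these genes are shown because their shared regulators read known letters. The cell cycle genes homology region (CHR) is the element through which DREAM and the B-MYB and FOXM1 complexes are known to bind, and CCAAT boxes bind NF-Y. RefSeq (GRCh38.p14) promoters of 300 bases, from 250 before to 50 after the first listed start, matched 34 of the 41 genes, without AURKA, BIRC5, BUB3, FOXM1, TPX2, TTK and UBE2C. Both strands were searched for TTTGAA or TTCGAA (the second reads the same on both strands) and for CCAAT. The CHR letters stood in 25 of 34 (73.5%), beside 16.6% of 27305 promoters. CCAAT stood in 25 of 34 (73.5%), beside 35.7%, and both in 20 of 34 (58.8%), beside 6.58%. Among members called with shRPL6-2, the CHR letters stood in 5 of the 5 lower and 2 of the 3 higher members that matched, so genes of both directions carry them. For 11 of the 34 the listed start lay over 50 bases from the 5′ end of the gene in the table, always inside the gene. The distance was 375 bases for AURKB, 103 for KIF23, 21767 for CENPA and 55378 for NUF2. The AURKB window, in which no CHR letters were found, thus does not cover the 5′ end that the table gives. The same holds for CENPA and NUF2, in whose windows CHR letters were found, so this limit does not set AURKB apart. The AURKB stretch from -100 to 20 (chr17:8210206-8210325, minus strand) holds no CHR letters and no CCAAT box, and a CCAAT box lies at -153. On the gene's strand the stretch reads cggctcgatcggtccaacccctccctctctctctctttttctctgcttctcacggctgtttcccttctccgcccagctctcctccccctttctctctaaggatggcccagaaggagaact.

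The stretches below are 120 bases, 5′ to 3′ on the gene's strand, from -100 to 20 around the start (for CDK1 from -221 to -102), with CHR letters and CCAAT boxes on either strand in capitals. ANLN, BUB1, KIF23 and CDK1 fell with shRPL6-2, while CDC20 and CENPA rose. They lie on build GRCh38.p14 at chr7:36389762-36389881 (ANLN, plus strand), chr2:110678044-110678163 (BUB1, minus), chr15:69414249-69414368 (KIF23, plus), chr10:60778110-60778229 (CDK1, plus), chr1:43358881-43359000 (CDC20, plus) and chr2:26785956-26786075 (CENPA, plus).
ANLN: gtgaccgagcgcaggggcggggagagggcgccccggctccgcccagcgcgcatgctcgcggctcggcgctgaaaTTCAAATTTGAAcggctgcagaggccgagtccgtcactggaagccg
BUB1: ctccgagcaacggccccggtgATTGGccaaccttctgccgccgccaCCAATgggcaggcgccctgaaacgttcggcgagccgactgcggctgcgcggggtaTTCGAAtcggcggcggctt
KIF23: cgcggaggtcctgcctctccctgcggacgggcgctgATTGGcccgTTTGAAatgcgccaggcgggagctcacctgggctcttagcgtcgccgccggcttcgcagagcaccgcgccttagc
CDK1: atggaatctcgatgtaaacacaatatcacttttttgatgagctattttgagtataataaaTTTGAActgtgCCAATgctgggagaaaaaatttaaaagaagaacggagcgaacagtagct
CDC20: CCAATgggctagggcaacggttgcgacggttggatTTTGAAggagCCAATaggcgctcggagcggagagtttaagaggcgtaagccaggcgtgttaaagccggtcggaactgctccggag
CENPA: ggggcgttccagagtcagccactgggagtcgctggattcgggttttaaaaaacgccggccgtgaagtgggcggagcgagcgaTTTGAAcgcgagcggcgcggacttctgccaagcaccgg
A CHR match lies at -20 in ANLN, 2 in BUB1, -55 in KIF23, -161 in CDK1, -65 in CDC20 and -18 in CENPA, counted from the first base of the match. BUB1 and CDC20 each show a pair of CCAAT boxes, and in KIF23, CDC20 and CDK1 a CCAAT box stands within a few bases of the CHR letters. A match of letters is a description of the window and no evidence of binding.

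Of the 8 kinases and kinase regulators, CDK1, the catalytic subunit of the mitotic engine, and AURKA, the kinase of centrosomes and spindle poles, fell with shRPL6-2. Of all genes, 14.6% were called lower with that hairpin. None of the 8 rose with shRPL6-2, none was called with shRPL6-1, and CCNB1, CCNB2 and PLK1 did not pass the test with either hairpin. CDK1 had 113, 103 and 133 CPM with shRPL6-1 and 119, 79.8 and 104 CPM with shRPL6-2, against 192, 173 and 135 CPM in shCont. Every hairpin library lay below every shCont library, by a narrow margin at shCont replicate 3. The log2 fold change was -0.52 ± 0.20 (SE, adjusted p = 0.113) with shRPL6-1 and -0.72 ± 0.20 (adjusted p = 0.0232) with shRPL6-2. AURKA had 104, 88.0 and 77.2 CPM with shRPL6-1 and 74.7, 68.2 and 103 CPM with shRPL6-2, against 117, 128 and 126 CPM in shCont. Here shCont replicate 3 sat with its group, and the groups did not overlap. Its log2 fold change was -0.46 ± 0.19 (adjusted p = 0.13) and -0.59 ± 0.19 (adjusted p = 0.037).

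CCNB1, the main mitotic cyclin, had 168, 203 and 176 CPM with shRPL6-1 and 173, 129.7 and 214 CPM with shRPL6-2, against 210.2, 212 and 196 CPM in shCont. The ranges overlapped, and the log2 fold changes were -0.18 (adjusted p = 0.545) and -0.26 (adjusted p = 0.301). CCNB2, a second B-type cyclin, had 65.9, 85.1 and 73.0 CPM with shRPL6-1 and 57.6, 50.9 and 78.8 CPM with shRPL6-2, against 47.7, 43.3 and 50.9 CPM in shCont. It thus stood above shCont in all shRPL6-1 libraries, at 0.66 ± 0.19 (adjusted p = 0.0551), and at 0.40 ± 0.19 (adjusted p = 0.133) with shRPL6-2. The difference between CDK1 and its cyclin CCNB2 was not tested. PLK1, the Polo-like kinase of spindle poles and kinetochores, had 196, 189.9 and 179 CPM with shRPL6-1 and 161, 247 and 249 CPM with shRPL6-2, against 137, 146 and 195 CPM in shCont. Its log2 fold changes were 0.24 (adjusted p = 0.444) and 0.46 (adjusted p = 0.106). CCNA2, CDC25B and CDC25C, a cyclin and a pair of phosphatases that activate CDK1, did not pass with either hairpin.

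In the chromosomal passenger complex, the catalytic subunit rose and its partners did not pass the test. Of all genes, 4.44% were called higher with shRPL6-1 and 13.3% with shRPL6-2. AURKB had 86.1, 74.4 and 83.0 CPM with shRPL6-1 and 83.3, 92.4 and 71.4 CPM with shRPL6-2, against 36.5, 38.3 and 58.1 CPM in shCont. All 6 hairpin libraries lay above the highest shCont library, replicate 3. The log2 fold changes were 0.87 ± 0.20 (adjusted p = 0.0288) with shRPL6-1 and 0.89 ± 0.20 (adjusted p = 0.0114) with shRPL6-2. INCENP, the scaffold of the complex, had 72.5, 62.1 and 86.3 CPM with shRPL6-1 and 77.4, 75.5 and 82.9 CPM with shRPL6-2, against 62.3, 60.8 and 78.3 CPM in shCont. BIRC5, which encodes survivin, had 41.1, 38.6 and 34.6 CPM with shRPL6-1 and 37.1, 49.5 and 38.5 CPM with shRPL6-2, against 18.2, 35.1 and 48.7 CPM in shCont. Both overlapped shCont, with adjusted p of 0.632 and 0.33 for INCENP and 0.74 and 0.468 for BIRC5, and CDCA8 (borealin) did not pass either.

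**Figure D3:**
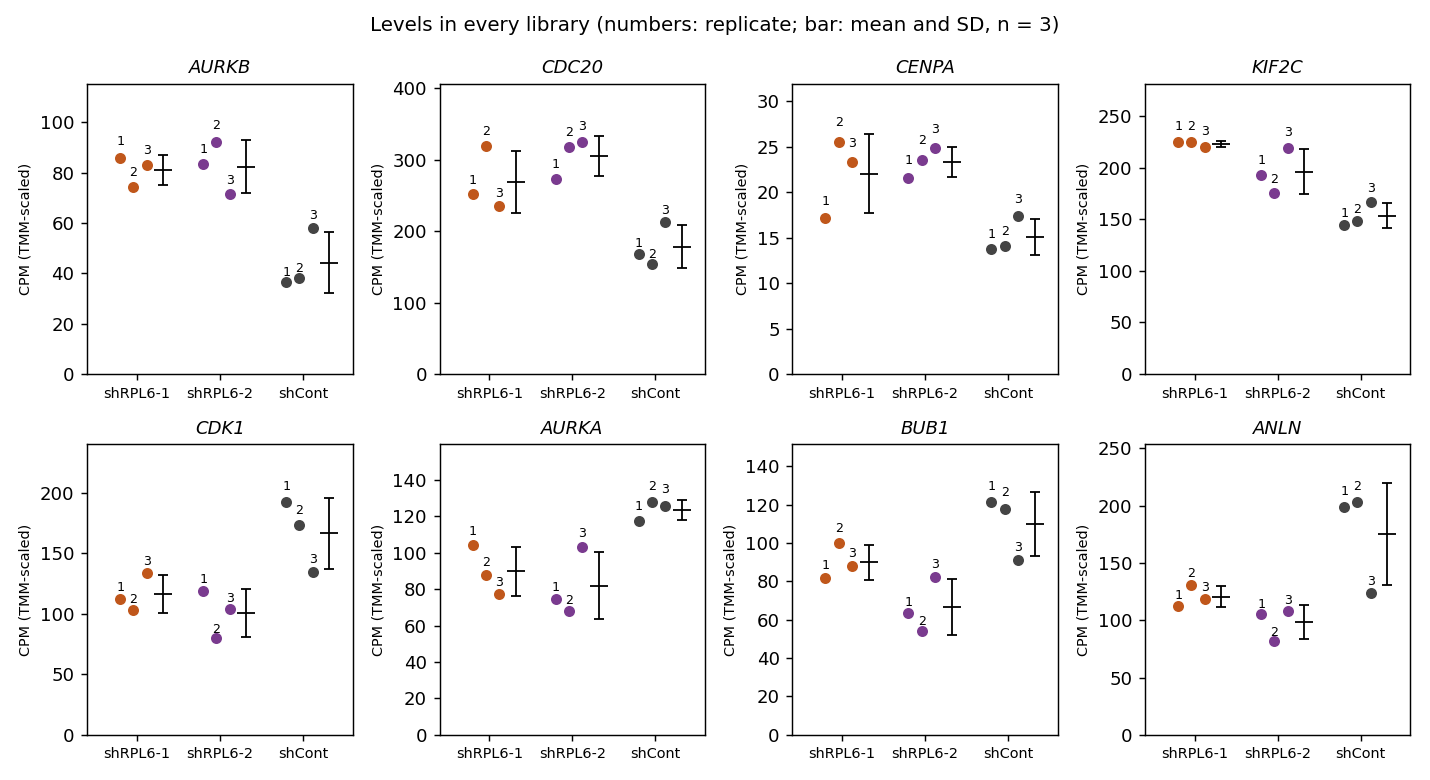
TMM-scaled CPM (vertical axes from 0) of 4 genes that were called higher (top) and 4 called lower (bottom) with at least 1 hairpin, in shRPL6-1, shRPL6-2 and shCont; points are libraries numbered by replicate, and bars are mean and SD (n = 3). AURKB separates at 71.4 CPM or more in the hairpin libraries and at most 58.1 CPM in shCont, while ANLN in shCont replicate 3 (124 CPM) lies near the hairpin libraries.

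Of the 5 spindle checkpoint genes, BUB1, BUB3 and TTK fell with shRPL6-2, beside 14.6% of all genes called lower, and none was called with shRPL6-1. BUB1, a checkpoint kinase of kinetochores, had 81.7, 100.05 and 87.8 CPM with shRPL6-1 and 63.3, 53.9 and 82.5 CPM with shRPL6-2, against 121, 118 and 91.0 CPM in shCont. BUB3, the WD-repeat protein that brings BUB1 to kinetochores, had 159, 199 and 184 CPM with shRPL6-1 and 130.3, 105 and 158 CPM with shRPL6-2, against 224, 228 and 163 CPM in shCont. TTK, the kinase (MPS1) that starts the checkpoint signal, had 24.9, 25.0 and 29.1 CPM with shRPL6-1 and 25.3, 20.5 and 25.0 CPM with shRPL6-2, against 43.6, 38.6 and 27.6 CPM in shCont. In all of these the shRPL6-2 libraries lay below every shCont library, and shCont replicate 3 was the lowest of its group. With shRPL6-2 the log2 fold change was -0.72 ± 0.19 for BUB1 (adjusted p = 0.0209), -0.65 ± 0.19 for BUB3 (adjusted p = 0.0323) and -0.63 ± 0.20 for TTK (adjusted p = 0.0355). With shRPL6-1 it was -0.29 (adjusted p = 0.331), -0.18 (adjusted p = 0.557) and -0.47 (adjusted p = 0.138). BUB1B and MAD2L1, whose products join CDC20 in the inhibitory checkpoint complex, did not pass with either hairpin, and with shRPL6-2 were at -0.63 (adjusted p = 0.0838) and -0.12 (adjusted p = 0.663).

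Of the 4 genes of the anaphase switch, CDC20 rose with shRPL6-2, beside 13.3% of all genes called higher, and none was called with shRPL6-1. CDC20, the activator of the APC/C and the target of the checkpoint, had 252, 318 and 235 CPM with shRPL6-1 and 273, 317 and 325 CPM with shRPL6-2, against 168, 154 and 212 CPM in shCont. No hairpin library overlapped shCont, and the log2 fold change was 0.59 ± 0.18 (adjusted p = 0.0617) with shRPL6-1 and 0.77 ± 0.18 (adjusted p = 0.0122) with shRPL6-2. UBE2C, the ubiquitin-conjugating enzyme of the APC/C, had 147, 182 and 121 CPM with shRPL6-1 and 178, 161 and 216 CPM with shRPL6-2, against 124, 126 and 156 CPM in shCont. PTTG1, which encodes securin, had 131, 140.4 and 149 CPM with shRPL6-1 and 144, 126 and 165 CPM with shRPL6-2, against 107, 92.6 and 129.7 CPM in shCont. With shRPL6-2 their log2 fold changes were 0.45 (adjusted p = 0.0955) and 0.40 (adjusted p = 0.0929), and neither passed. ESPL1, which encodes separase, was at 0.34 (adjusted p = 0.134) with shRPL6-1 and -0.13 (adjusted p = 0.503) with shRPL6-2. CDC20 has a processed copy, CDC20P1, whose counts came to 1.61% of its own, and AURKAP1 came to 1.18% of AURKA.

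In the kinetochore and centromere group of 7, CENPA rose and NUF2 fell with shRPL6-2, beside 13.3% of all genes called higher and 14.6% lower. CENPA, the histone H3 variant that marks centromeres, had 17.2, 25.6 and 23.4 CPM with shRPL6-1 and 21.6, 23.6 and 24.8 CPM with shRPL6-2, against 13.8, 14.1 and 17.4 CPM in shCont. Its log2 fold changes were 0.55 ± 0.19 (adjusted p = 0.0954) and 0.63 ± 0.19 (adjusted p = 0.0351). NUF2, a subunit of the NDC80 complex that grips microtubules, had 19.6, 23.2 and 21.0 CPM with shRPL6-1 and 19.4, 14.6 and 20.02 CPM with shRPL6-2, against 27.3, 31.2 and 22.1 CPM in shCont. Its log2 fold changes were -0.34 ± 0.19 (adjusted p = 0.263) and -0.58 ± 0.19 (adjusted p = 0.0466). CENPF, a large outer kinetochore protein, had 112, 193 and 120.4 CPM with shRPL6-1 and 113, 83.3 and 150.1 CPM with shRPL6-2, against 229, 198 and 126 CPM in shCont, and its groups overlapped (adjusted p = 0.408 and 0.102). CENPE, a kinetochore motor, NDC80, SPC25 and SKA1 did not pass with either hairpin. SKA1, of the SKA complex, had only 2 to 14 counts per library, and with an SE of 0.60 on its log2 fold change a difference of the size seen in NUF2 was not detectable at this depth.

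CENPA is uncertain because it overlaps another gene. A same-strand neighbour, SLC35F6, shares 6.96% of its exonic bases, and SLC35F6 had 57.2, 22.1 and 55.1 CPM with shRPL6-1 and 18.9, 21.1 and 19.6 CPM with shRPL6-2, against 56.3, 54.6 and 58.6 CPM in shCont. How reads in the shared bases were assigned is not given in the sources used here, and its part in the CENPA value was not tested.

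Of the spindle motors and organisers, KIF2C rose with shRPL6-1, beside 4.44% of all genes called higher. KIF2C, the microtubule-depolymerising kinesin MCAK that acts with AURKB at faulty attachments, had 225, 224 and 219.6 CPM with shRPL6-1 and 193, 176 and 219 CPM with shRPL6-2, against 145, 148 and 167 CPM in shCont. Every hairpin library lay above every shCont library, and the log2 fold changes were 0.54 ± 0.14 (adjusted p = 0.0428) and 0.35 ± 0.14 (adjusted p = 0.0812). KIF11, the kinesin that pushes spindle poles apart, had 58.0, 68.6 and 62.4 CPM with shRPL6-1 and 61.9, 38.3 and 64.1 CPM with shRPL6-2, against 89.2, 80.7 and 57.5 CPM in shCont (adjusted p = 0.451 and 0.139). NUSAP1, a microtubule-bundling protein, had 49.3, 53.6 and 52.6 CPM with shRPL6-1 and 48.4, 30.9 and 51.4 CPM with shRPL6-2, against 68.0, 79.0 and 50.6 CPM in shCont (adjusted p = 0.318 and 0.0644). For both, shCont replicate 3 fell within the range of the hairpin libraries. KIF18A and TPX2, the activator of AURKA on the spindle, did not pass.

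The central spindle and cytokinesis genes ANLN and KIF23 fell with shRPL6-2, beside 14.6% of all genes called lower. ANLN encodes anillin, the scaffold of the cleavage furrow, and had 113, 131 and 119 CPM with shRPL6-1 and 105, 81.7 and 108 CPM with shRPL6-2, against 199, 203 and 124 CPM in shCont. Its log2 fold change of -0.83 ± 0.20 (adjusted p = 0.0158) with shRPL6-2 was the lowest of the 41, and with shRPL6-1 it was -0.54 ± 0.20 (adjusted p = 0.112). KIF23, the kinesin subunit of centralspindlin, had 69.7, 95.5 and 74.9 CPM with shRPL6-1 and 54.2, 44.2 and 76.8 CPM with shRPL6-2, against 102, 116 and 72.8 CPM in shCont. Unlike the other 7 genes called lower, KIF23 overlapped shCont, through shCont replicate 3 and shRPL6-2 replicate 3. Its log2 fold change was -0.28 ± 0.24 (adjusted p = 0.465) with shRPL6-1 and -0.73 ± 0.24 (adjusted p = 0.0442) with shRPL6-2. ECT2, the exchange factor that activates RhoA at the furrow, had 55.3, 58.6 and 59.6 CPM with shRPL6-1 and 59.9, 43.0 and 70.6 CPM with shRPL6-2, against 91.7, 91.9 and 59.2 CPM in shCont (adjusted p = 0.169 and 0.118). KIF20A did not pass.

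PRC1, which bundles the central spindle, shares 57.6% of its exonic bases with the same-strand gene AC068831.8, so its reads may have been split between both. PRC1 had 189, 228 and 201 CPM with shRPL6-1 and 189, 158 and 245 CPM with shRPL6-2, against 207, 108 and 187 CPM in shCont, where replicate 2 was low. AC068831.8 had 18.7 to 32.9 CPM in the hairpin libraries, 156 CPM in shCont replicate 2 and 38.6 and 59.0 CPM in the other two of shCont. The sum of both genes was 208, 258 and 233 CPM with shRPL6-1 and 221, 181 and 278 CPM with shRPL6-2, against 266, 264 and 225 CPM in shCont, so the low PRC1 value has no counterpart in the sum. Those values were looked up after PRC1 was seen to stand apart in 1 library. NUSAP1 shares 62.2% of its exonic bases with AC087721.2 and is uncertain in the same way. AC087721.2 had 7.59, 18.6 and 32.9 CPM in shCont. The NUSAP1 sum was 72.2, 81.3 and 60.6 CPM with shRPL6-1 and 76.4, 65.2 and 72.0 CPM with shRPL6-2. In shCont it was 75.6, 97.6 and 83.5 CPM, so in the sum shCont replicate 3 lay above every hairpin library. On the opposite strand FOXM1 shares 15.9% of its exonic bases with ITFG2, CCNA2 9.08% with EXOSC9 and CDC25C 8.78% with FAM53C, and whether counting used strand is not given.

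The genes most used as marks of proliferation gave no call. TOP2A, the topoisomerase that untangles sister chromatids, had 193, 287 and 211 CPM with shRPL6-1 and 221, 160.4 and 246 CPM with shRPL6-2, against 345, 329 and 199 CPM in shCont. MKI67, the Ki-67 antigen, had 108, 168 and 127 CPM with shRPL6-1 and 92.9, 58.1 and 169 CPM with shRPL6-2, against 214, 180.4 and 111 CPM in shCont. FOXM1, the transcription factor of this gene programme, had 110.0, 97.7 and 112 CPM with shRPL6-1 and 69.3, 105 and 137 CPM with shRPL6-2, against 65.7, 63.2 and 125 CPM in shCont. In each of them shCont replicate 3 lay inside the range of the hairpin libraries, low for TOP2A and MKI67 and high for FOXM1. The log2 fold changes with shRPL6-2 were -0.48 ± 0.25 for TOP2A (adjusted p = 0.167), -0.66 ± 0.36 for MKI67 (adjusted p = 0.186) and 0.30 ± 0.29 for FOXM1 (adjusted p = 0.468). With shRPL6-1 they were -0.34 (adjusted p = 0.382), -0.33 (adjusted p = 0.568) and 0.33 (adjusted p = 0.472).

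Between genes, levels were compared per length. In shCont the highest FPKM (fragments per kilobase of gene, scaled to library depth by the authors) was that of CDC20, at 66.9 ± 7.05 (SD, n = 3), followed by CCNB1 at 58.2 ± 6.01, TPX2 at 55.0 ± 8.79, UBE2C at 50.6 ± 3.28 and TOP2A at 43.1. The SD ranges of neighbours in that order overlapped. SKA1 (0.153) and SPC25 (0.890) were the lowest, although SPC25 is a subunit of the NDC80 complex, whose other subunits NDC80 and NUF2 stood at 14.7 and 4.54.

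Between the hairpins no member differed by the test. None of the 41 was called higher (0.0681% of all genes) or lower (0.316% of all genes) with shRPL6-2 against shRPL6-1, and at an unadjusted p under 0.05 there were 3 (BUB1, BUB3 and ESPL1), all lower. The calls made with shRPL6-2 and missed with shRPL6-1 are therefore no shown difference between hairpins. ESPL1 came closest and is given because of that value. It had 79.1, 86.7 and 87.9 CPM with shRPL6-2, against 118, 113 and 121 CPM with shRPL6-1, without overlap, and 86.1, 87.9 and 104 CPM in shCont. Its log2 fold change between hairpins was -0.48 ± 0.14 (adjusted p = 0.24), and it was called by DESeq2 (adjusted p = 0.0336) and with GC and length offsets (log2 fold change -0.51, adjusted p = 0.0259). BUB1 was at -0.43 (adjusted p = 0.45) and BUB3 at -0.46 (adjusted p = 0.425).

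The direction of the members followed the GC content of their transcripts. The Spearman correlation of log2 fold change with GC over the 41 genes was 0.67 with shRPL6-1 and 0.63 with shRPL6-2, and over 15996 genes with a GC value it was 0.33 and 0.48. These are correlations across genes, which share the same libraries. Among the 14 members of lowest GC (35.3 to 41.4%), the median log2 fold change with shRPL6-2 was -0.50, with 5 called lower and none higher. Among the 14 of highest GC (48.3 to 59.6%) it was 0.29, with 2 called higher and none lower. Of all genes tested, at any GC content, 14.6% were called lower and 13.3% higher with shRPL6-2. Shares for all genes within these GC ranges were not computed. ANLN, at the low end, and AURKB and CDC20, at the high end, show the pattern, and AURKA (46.6% GC) was called lower from the middle class.

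When each library's smooth trend over GC content and length was removed, the median of the 41 with shRPL6-2 was 0.02 and that with shRPL6-1 0.10. With shRPL6-2, 4 of the 8 lower calls remained (CDK1, AURKA, BUB1 and ANLN, with log2 fold changes of -0.41, -0.58, -0.38 and -0.31), beside 12.1% of all genes called lower. AURKB stayed higher (0.47, adjusted p = 0.0121), CCNB2 was added (0.53, adjusted p = 0.0396), and CDC20 (0.38, adjusted p = 0.125) and CENPA (0.50, adjusted p = 0.0542) were not called. With shRPL6-1, AURKB (0.66, adjusted p = 0.005), KIF2C (0.48, adjusted p = 0.0142) and CCNB2 (0.71, adjusted p = 0.0195) were called higher. AURKB and CCNB2 were then called with both hairpins. Of all genes, this fit called 8.57% higher with shRPL6-1, 12.3% with shRPL6-2 and 6.37% with both. BUB3 was at -0.12 and TTK at -0.19 with shRPL6-2, neither called.

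**Figure D4:**
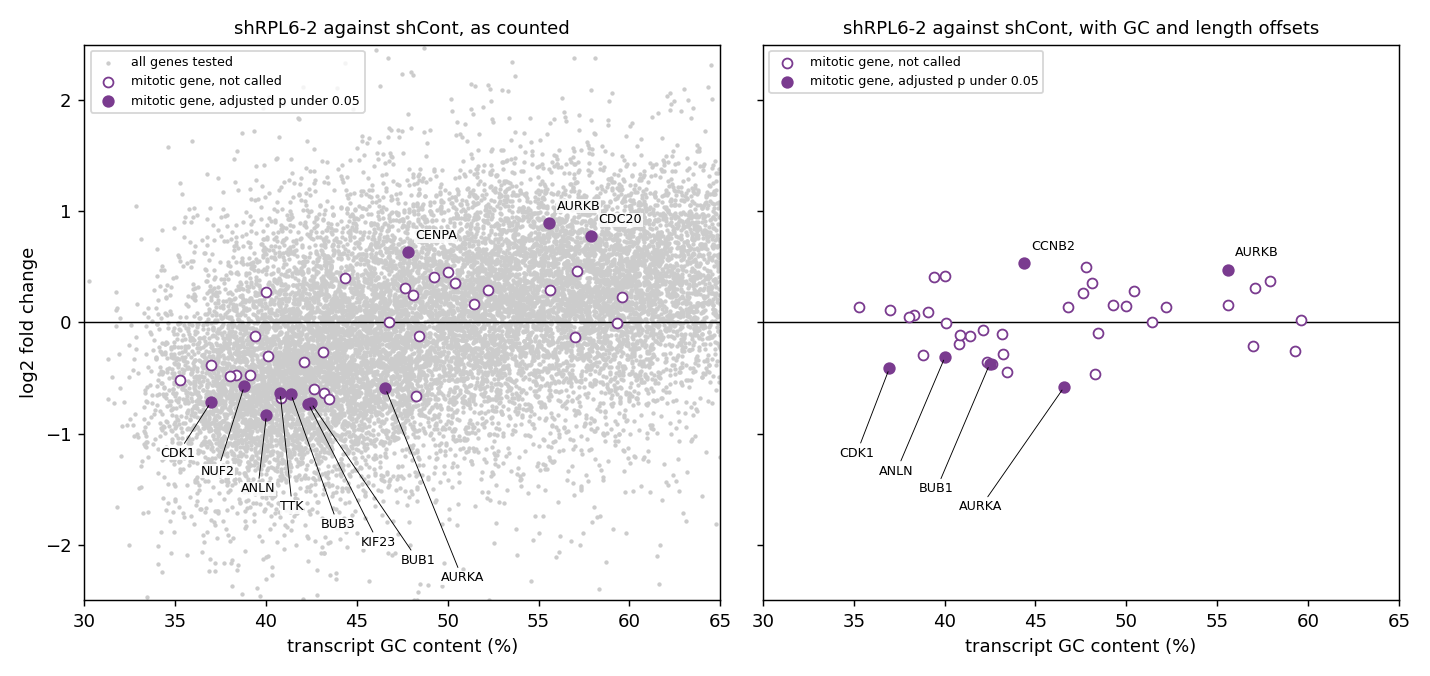
Log2 fold change of shRPL6-2 against shCont (vertical axis) over transcript GC content in percent (horizontal axis), as counted (left, grey points are all genes tested that fall inside the axes) and with GC and length offsets (right, mitotic genes only); filled points have an adjusted p under 0.05 and carry names. On the left the mitotic genes climb with GC (Spearman 0.63); on the right CDK1, ANLN, BUB1 and AURKA stay below 0 and AURKB and CCNB2 above.

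Single libraries weighed on these counts. Without shCont replicate 3, members called with shRPL6-2 came to 9 higher and 16 lower, beside 22% and 21.6% of all genes, and with shRPL6-1 to 9 higher and 5 lower, beside 15.6% and 13.3%. CDK1, ANLN, TTK, BUB1B and ECT2 were then called lower with both hairpins, beside 12% of all genes. With shRPL6-2 the added calls included TOP2A and KIF11, lower, and FOXM1, PLK1, UBE2C and PTTG1, higher. Without shCont replicate 1 only CDC20 was called with shRPL6-2, beside 4.42% of all genes called higher and 5.1% lower. Without shCont replicate 2 no member was called in any comparison. Of all genes, that fit called 3.96% higher and 4.43% lower with shRPL6-2, and 0.31% and 0.292% with shRPL6-1. Without shRPL6-2 replicate 2 no member was called lower with shRPL6-2, beside 5.53% of all genes. Without shRPL6-2 replicate 1 ANLN and CDK1 were, beside 6.9%. Without shRPL6-1 replicate 3 ANLN, BUB1 and CDK1 were, beside 11.2%, and without shRPL6-1 replicate 1 there were 5, beside 11.7%. The call of AURKB with shRPL6-2 was lost only without shCont replicate 1 or 2, with a largest adjusted p of 0.0537 over the 9 fits that leave out a library. That of CDC20 was lost only without shCont replicate 2 (adjusted p = 0.0559). The other shRPL6-2 calls were lost more often. Of the 9 fits, those of TTK and NUF2 were lost in 7 and those of KIF23 and CENPA in 6. Those of AURKA and BUB3 were lost in 5, that of BUB1 in 4, and those of CDK1 and ANLN in 3. With shRPL6-1, the calls of AURKB and KIF2C were each lost in 6 of those 9 fits, with adjusted p up to 0.131 and 0.158. Both calls held without shCont replicate 3, shRPL6-2 replicate 2 or shRPL6-2 replicate 3. In the 6 fits, 0.31% to 2.03% of all genes were called higher with shRPL6-1.

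Other genes of the cell cycle were counted in 7 further lists. Of 189 such genes tested, 24 were called higher (12.7%, beside 13.3% of all genes) and 34 lower (18.0%, beside 14.6%) with shRPL6-2, while 8 were called higher (4.23%, beside 4.44%) and 11 lower (5.82%, beside 4.07%) with shRPL6-1. With 13 to 41 genes a list, the counts that follow rest on few calls. Among 23 other genes of the APC/C and checkpoint, 4 (17.4%) rose and 1 (4.35%) fell with shRPL6-2. UBE2S, which extends the ubiquitin chains that UBE2C begins, rose with both hairpins (log2 fold change 1.20, adjusted p = 0.0269, with shRPL6-1 and 1.35, adjusted p = 0.00767, with shRPL6-2). The APC/C subunits ANAPC15 (0.96) and ANAPC4 (-0.95) were called in opposite directions with shRPL6-2. Among 27 other centromere and kinetochore genes, 5 (18.5%) rose and 4 (14.8%) fell with shRPL6-2, while 4 rose and 3 fell with shRPL6-1. SKA2, a partner of SKA1, rose with both (0.83 and 0.83), CENPC, which binds CENP-A chromatin, fell with both (-1.04 and -1.25), and PMF1 rose with shRPL6-2 (1.12).

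The shares of all genes called with shRPL6-2, 13.3% higher and 14.6% lower, stand beside each count here. Of 41 other spindle, motor and cytokinesis genes, 6 (14.6%) rose and 7 (17.1%) fell with shRPL6-2, while 1 rose and 2 fell with shRPL6-1. CKS1B, a small subunit bound to CDKs, rose with both hairpins (0.87 and 1.04), TROAP rose with shRPL6-2 (1.04), and MASTL, the Greatwall kinase that restrains a phosphatase opposing CDK1, fell with it (-0.67). Of 21 condensin and cohesin genes, 1 (4.76%) rose and 7 (33.3%) fell with shRPL6-2, while none rose and 1 fell with shRPL6-1. STAG2, a cohesin subunit, averaged 38.3 ± 4.98 CPM with shRPL6-2 and 108 ± 18.4 CPM with shRPL6-1, against 151 ± 45.8 CPM in shCont (SD, n = 3 each). Its log2 fold change was -1.97 (adjusted p = 0.00168) with shRPL6-2 and -0.47 (adjusted p = 0.196) with shRPL6-1, and the hairpins differed (-1.498, adjusted p = 0.0265). SMC1A fell (-0.77) and NCAPH2, of condensin II, rose (0.89) with shRPL6-2.

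Among 13 genes of the DREAM and MuvB complexes, which regulate the mitotic promoters, 1 (7.69%) rose and 3 (23.1%) fell with shRPL6-2, beside the same 13.3% and 14.6% of all genes, while none rose and 1 fell with shRPL6-1. MYBL2, which encodes B-MYB, rose with shRPL6-2 (1.02, adjusted p = 0.0174), and RBL2, the p130 pocket protein of DREAM, fell with both hairpins (-1.06, adjusted p = 0.0309, and -1.07, adjusted p = 0.0132). TFDP1, the dimer partner of E2F factors, averaged 63.0 ± 5.58 CPM with shRPL6-2 and 123 ± 14.3 CPM with shRPL6-1, against 138 ± 6.88 CPM in shCont, and differed between the hairpins (-0.96, adjusted p = 0.0261). Of 23 G1 regulators tested, 3 (13.0%) rose and 6 (26.1%) fell with shRPL6-2, while 1 rose and 2 fell with shRPL6-1. CDKN1A, the CDK inhibitor p21, fell with shRPL6-2 (-1.66, adjusted p = 0.00467) and was at -0.95 (adjusted p = 0.0531) with shRPL6-1. E2F7, a repressor of E2F targets, fell with shRPL6-2 (-1.55), and CCNE2, a cyclin of S phase entry, fell with both hairpins (-1.90 and -2.23). Of 41 S phase genes, 4 (9.76%) rose and 6 (14.6%) fell with shRPL6-2, among them MCM2 (0.70), PCNA (-0.95) and RRM2 (-0.75).

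**Figure D5:**
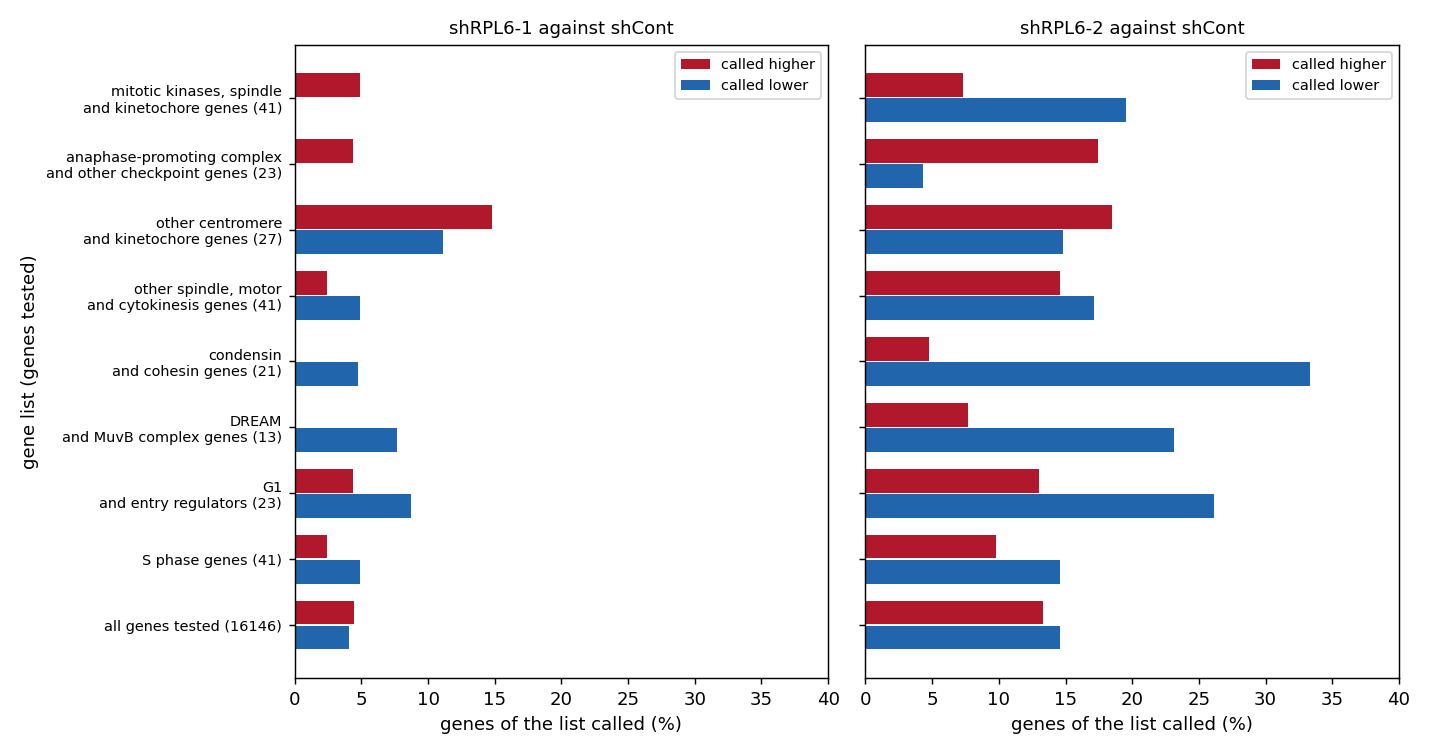
Percent of the tested genes of each list (rows, number tested in brackets) called higher (red) or lower (blue) with shRPL6-1 (left) and shRPL6-2 (right), with all genes tested in the bottom row. The mitotic genes in the top row stand at 4.88% and 0% with shRPL6-1 and at 7.32% and 19.5% with shRPL6-2, near the 4.44%, 4.07%, 13.3% and 14.6% of all genes.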

How the data were processed

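Poly-A RNA was sequenced as stranded paired-end libraries. According to the submitters' processing notes, the tools were CASAVA 1.8 for base calls, then HISAT2, StringTie and edgeR, on GRCh38; how reads were counted, and whether strand was used, is not given in the sources used here. The authors deposited whole-number counts per gene and, computed from them, FPKM. Columns were matched to libraries by abbreviated names, read as NC for the control, or Si with the hairpin number, and then the replicate number; no source states this. The RPL6 counts separate control from hairpin libraries, and cannot tell one hairpin from the other. Counts were tested with edgeR 4.0.16 (R 4.3.3): filterByExpr, which kept 99.8% of counts, TMM, a quasi-likelihood fit of all 9 libraries with 1 term per group (common biological coefficient of variation 23.9%), and Benjamini-Hochberg adjustment over 16146 genes. P-values are two-sided. The test was run on simulated data first. Alternatives were RLE and upper quartile scaling, no filter, DESeq2 1.42.0, only the 6 libraries compared, the replicate number as block, GC and length offsets (splines with 5 degrees of freedom), both together, the study's limits (unadjusted p under 0.05 and log2 fold change beyond 1), and leaving out each library. Libraries of 1 group differed by more than counting noise, at a chi-square of 9.98 to 64.6 for each degree of freedom. The members and lists were chosen with earlier results of these data known. Values in every library are given for 8 core genes and, in each role group, for the 3 members of smallest adjusted p with shRPL6-2 and the 1 with shRPL6-1, 26 in all; 3 genes are named from each other list.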

Additional observations from a re-analysis of the deposited data

How the results depend on the processing

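Counts of called members, higher then lower, were 2 and 0 with shRPL6-1 and 3 and 8 with shRPL6-2. No filter, or only the 6 libraries compared, gave 1 higher with shRPL6-1 and 3 lower with shRPL6-2. Of all genes, no filter called 1.13% and 4.66% (of 32426 genes with any count) and the 6 libraries 2.71% and 9.55%. DESeq2 gave 4 higher with shRPL6-1, 2 higher with both hairpins and 1 lower between the hairpins. These stand beside 3.98%, 3.21% and 0.759% of the 32426 genes. The 32426 include genes that the filter on low counts removes, while all members and all genes counted in the other lists passed it. Shares of all genes with DESeq2 or no filter, here and for the lists below, are thus no like-for-like background. GC and length offsets gave 4 lower with shRPL6-2, 2 higher with both hairpins and 1 lower between the hairpins. Beside them stand 12.1%, 6.37% and 0.855% of all genes. The study's limits gave 0 for every count of members. Of all genes they gave 3.11% higher and 4.01% lower with shRPL6-1, and 5.78% and 7.8% with shRPL6-2. Leaving out 1 library at a time gave 0 to 9 higher and 0 to 5 lower with shRPL6-1, and 0 to 9 higher and 0 to 16 lower with shRPL6-2. With both hairpins it gave 0 to 7 higher and 0 to 5 lower. Of all genes these fits called 0.31% to 15.6% higher and 0.218% to 13.3% lower with shRPL6-1. With shRPL6-2 the shares ran from 3.96% to 22% and 4.43% to 21.6%, and with both from 0.268% to 13.8% and 0.151% to 12%. Of the 7 other lists, counts higher and lower ran from 0 to 29 and 1 to 34 with shRPL6-1 and from 6 to 38 and 7 to 64 with shRPL6-2 in those fits. They were 8 and 11, and 24 and 34, with all libraries. For these lists no filter gave 4 higher and 4 lower with shRPL6-1, beside 1.13% and 0.786% of all genes. The 6 libraries gave 5 lower with shRPL6-1 and 16 higher and 22 lower with shRPL6-2, beside 2.6%, 8.29% and 9.55%. DESeq2 gave 19 higher and 18 lower with shRPL6-1, beside 3.98% and 3.87%. GC and length offsets gave 26 higher and 17 lower with shRPL6-1 and 21 lower with shRPL6-2, beside 8.57%, 7.39% and 12.1%. The study's limits gave 1 and 6 with shRPL6-1 and 6 and 8 with shRPL6-2, beside the shares of all genes given above for those limits.

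Replicate numbers gave no sign of a pairing. Correlations ran from -0.47 to 0.25 for same-numbered libraries and from -0.34 to 0.43 for differently numbered libraries. With values this scattered in both sets, the check cannot exclude a pairing. With the replicate block, 0 members were higher with shRPL6-1, 0 lower with shRPL6-2 and 0 higher with both. Of all genes these shares were 0.118%, 6.59% and 0.0929%. With block and GC offsets 1 was higher and 1 lower with shRPL6-2, beside 7.95% and 7.59% of all genes. For the other lists the block gave 0 higher and 1 lower with shRPL6-1 and 12 higher and 14 lower with shRPL6-2. Beside these stand 0.118%, 0.0805%, 6.41% and 6.59% of all genes. Block with GC offsets gave 14 higher with shRPL6-1 and 16 lower with shRPL6-2, beside 4.47% and 7.59%.

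Named values turned sign in 18 combinations of value and alternative, and none of these values was called to begin with. GC and length offsets, without and with the block, gave for BUB3 0.11 and 0.11 and for UBE2C -0.050 and -0.047 with shRPL6-1, for KIF11 0.10 and 0.10 with shRPL6-1 and 0.069 and 0.063 with shRPL6-2, for TOP2A 0.026 and 0.023 with shRPL6-1 and 0.093 and 0.097 with shRPL6-2, and for ECT2 0.050 and 0.043 with shRPL6-2. Leaving out a library moved UBE2C between -0.023 and 0.29 and BIRC5 between -0.16 and 0.52 with shRPL6-1, and BIRC5 between -0.0028 and 0.65 and PRC1 between -0.00091 and 0.43 with shRPL6-2. The cause of these changes was not tested. In the 200 bases nearest to the start, CHR letters stood in 64.7% of the members' promoters.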
